A study of Mus musculus with 2 samples.

Results

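The genes described here make up the IL-33 axis and the type 2 lymphoid program of fat tissue: the alarmins Il33 and Tslp, the receptor genes Il1rl1 and Il17rb, the transcription factor genes Gata3 and Rora, the surface receptor gene Klrg1, and the effector genes Il5, Il13 and Areg. They were chosen by gene symbol, 10 of the 24346 symbols listed in each library. RNA-seq was performed on whole mouse omentum, the abdominal fat sheet that carries the lymphoid clusters called milky spots, to find transcripts that depend on Aldh1a2+ fibroblastic reticular cells. The WT mice gave 1 library and the Postn-DTR mice (labelled DTR) 1, both taken 5 days after diphtheria toxin (DT), so the WT library also saw the toxin. Postn-DTR mice are on the C57BL/6 background and carry a mutated diphtheria toxin receptor inserted at Postn, so that DT kills whichever cells use the Postn promoter, in the omentum or elsewhere. The paper used heterozygotes, which keep an intact Postn copy beside the interrupted one. The age and sex of the mice, and whether a library came from a single omentum or from several, are not given in the sources used here. With 1 library per genotype there was no spread between replicates, so no test was run and no difference below could be set against replicate error.

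IL-33 is a nuclear cytokine of stromal cells that is released on damage and read through ST2, the product of Il1rl1, which pairs with the shared chain IL1RAP. TSLP and IL-25 are the other alarmins of this group, and the product of Il17rb is the IL-25-binding chain of its receptor. In fat, these signals act on group 2 innate lymphoid cells (ILC2s), regulatory T cells and mast cells. ILC2s depend on GATA3 and RORalpha and answer with IL-5, which maintains eosinophils, IL-13, which drives alternative macrophage activation, and amphiregulin, the EGF receptor ligand encoded by Areg.

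Abundance was deposited as FPKM, a fragment count corrected for transcript length and library size. A change is the log2(FPKM + 1) value in Postn-DTR less that in WT, which understates the change of low genes, and it was read only where the FPKM of the 2 libraries averaged 1 or more. Lower and higher, as counts, mean by 2-fold or more on that scale. The depth behind the values was estimated from the steps between low FPKM, at about 23400000 fragments in WT and 24200000 in Postn-DTR. Estimated reads and the 95% intervals given with ratios rest on those depths and on annotated transcript lengths, and they cover counting error only. In bulk tissue, fewer cells of a type and less RNA per cell cannot be told apart.

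The libraries differed in ways that reached beyond these genes. Postn itself was at an FPKM of 58.3 in WT and 16.2 in the library labelled DTR. In these heterozygotes, the parts of the interrupted Postn copy and of lost cells in that difference cannot be told apart. Summed over all genes, the WT values came to 542190 and the Postn-DTR values to 671882. All 31 pancreatic acinar genes that could be compared were lower in Postn-DTR, and the summed FPKM of the acinar list was 13040 in WT against 20.7 in Postn-DTR. When both libraries were set to the same total, the all-gene median shifted by -0.27, and with the acinar genes removed first it shifted by -0.30.

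Il1rl1, which had the largest change among the members, has more than one annotated start. RefSeq (GRCm38.p6) places a pair of start sites 10.1 kb apart on the plus strand of chromosome 1. The window from 250 bases before to 50 bases after each start is shown because the deposited value is 1 number per gene and does not separate the starts. Capitals mark the letters GATAA or, for the opposite strand, TTATC, a longer form of the GATA core that GATA factors such as GATA3 bind. Other runs that contain GATA were not marked or counted.
Il1rl1 upstream start, chr1:40429320-40429619: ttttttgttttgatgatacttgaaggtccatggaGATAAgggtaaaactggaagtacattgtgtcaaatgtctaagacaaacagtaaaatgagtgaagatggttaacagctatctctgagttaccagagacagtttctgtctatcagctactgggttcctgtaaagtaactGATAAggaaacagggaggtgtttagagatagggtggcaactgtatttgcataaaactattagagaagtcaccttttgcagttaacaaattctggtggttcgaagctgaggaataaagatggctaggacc
Il1rl1 downstream start, chr1:40439379-40439678: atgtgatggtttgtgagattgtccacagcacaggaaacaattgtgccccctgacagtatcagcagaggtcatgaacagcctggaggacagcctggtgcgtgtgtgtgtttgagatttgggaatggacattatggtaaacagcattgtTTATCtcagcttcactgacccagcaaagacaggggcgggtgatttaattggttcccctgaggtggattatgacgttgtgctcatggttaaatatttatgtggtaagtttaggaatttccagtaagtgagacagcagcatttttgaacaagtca
The upstream window held 2 matches on the gene's own strand and the downstream window held 1 on the opposite strand. Of 32851 promoter windows of 300 bases in the same table, 25.4% held at least 1 match on either strand and 5.27% held 2 or more. Windows were taken for 8 members, 10 windows in all, and none was taken for Tslp or Klrg1. This does not show that Tslp or Klrg1 lacks a start site or a match, which was not tested. Il13, Il17rb and 1 of the 2 Il33 windows held 1 match each, whereas the windows of Gata3, Rora, Il5 and Areg held none. A match is a run of letters and does not show that a factor binds there.

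None of the members reached a 2-fold change. Of the 10, 6 passed the expression minimum and 4 (Il17rb, Il5, Areg and Il13) did not, and among the 6 compared 0 were lower and 0 were higher by 2-fold. Over all 13127 genes compared, 3.12% were at least 2-fold lower and 3.88% at least 2-fold higher. Over the 3466 genes with a mean FPKM of 1 to 5, the class that holds all compared members except Il33, those shares were 4.65% and 3.95%. At such shares, a count of 0 among 6 genes does not set the members apart from other genes. By sign, 3 members were lower and 3 higher, with changes from -0.32 to 0.54 and a median of 0.03. The median over all genes compared was 0.02, and the 5th and 95th percentiles were -0.79 and 0.87.

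**Figure D1:**
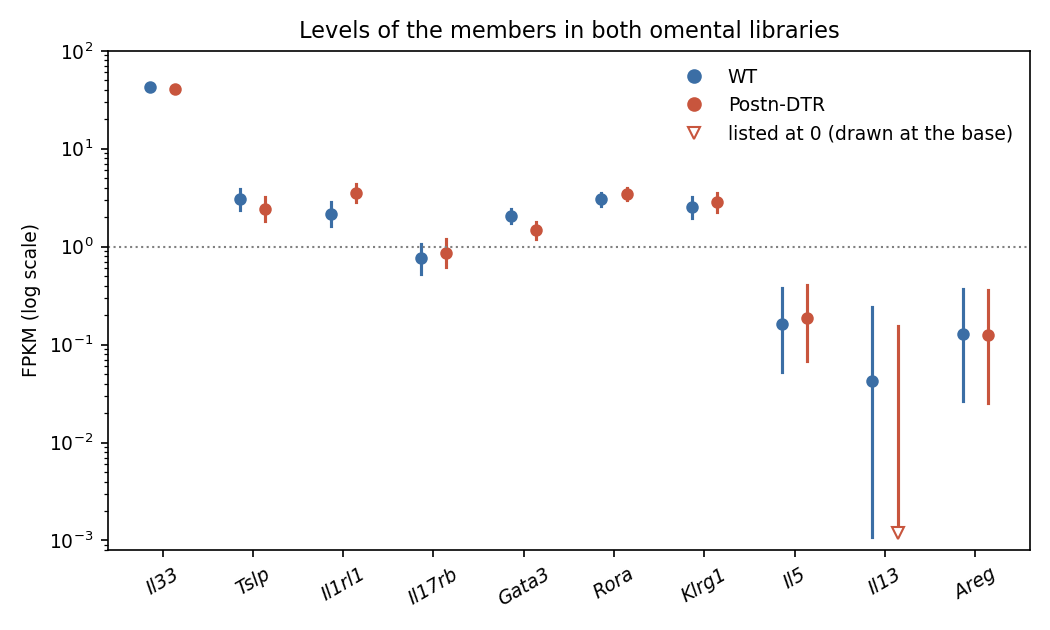
FPKM of the 10 members (log axis) in the WT library (blue) and the Postn-DTR library (red), 1 library each. Lines are 95% counting intervals, the dotted line is an FPKM of 1, and the open triangle is Il13, listed at 0 in Postn-DTR. Il33 lay far above the others at 43.0 and 40.5, while Il5, Il13 and Areg lay under 0.2 in both libraries.

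Il33 (ENSMUSG00000024810, chromosome 19, 29925114 to 29960718, plus strand, GRCm38) was by far the most abundant member. Its FPKM was 43.0 in WT against 40.5 in Postn-DTR, about 2341 and 2279 estimated reads. In WT 8.30% of all listed genes had a higher FPKM, and in Postn-DTR 9.64% did. The Postn-DTR to WT ratio was 0.942 (95% interval 0.888 to 0.998) and the change was -0.08. That interval barely excludes 1 on counting error, and the change itself ran from -0.42 to -0.07 over the alternatives tried, negative in each. Il33 made up 75.6% of the summed FPKM of the members in WT and 73.0% in Postn-DTR, and the sum was 56.9 and 55.4.

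Tslp (ENSMUSG00000024379, chromosome 18, 32815383 to 32819797, plus strand), the epithelial and stromal alarmin related to IL-7, was far lower than Il33. Its FPKM was 3.03 in WT against 2.44 in Postn-DTR, from 65 and 54 estimated reads. The ratio of 0.805 had an interval of 0.549 to 1.17, so the libraries could not be told apart at this depth. The change was -0.23, and it stayed negative under the alternatives, between -0.48 and -0.11.

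Il1rl1 (ENSMUSG00000026069, chromosome 1, 40429570 to 40465415, plus strand) had the largest difference of any member, and it was higher in the Postn-DTR library. Its FPKM was 2.15 in WT against 3.57 in Postn-DTR, a ratio of 1.66 with an interval of 1.15 to 2.38. The change of 0.54 did not reach 2-fold, and 11.2% of the genes compared had a higher one. Under the alternatives it lay between 0.26 and 0.70. The annotated coding transcripts of Il1rl1 run from 1216 to 5302 bp. A transcript that ends early lacks the membrane anchor and gives soluble ST2, a decoy for IL-33, whereas the long form gives the signalling receptor. The interval above used the shortest length, which gave 51 and 87 estimated reads, and the longest would give 256 and 440. Which form the reads came from cannot be read from 1 value per gene. The FPKM ratio of ligand to receptor was 19.98 in WT against 11.3 in Postn-DTR.

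Il17rb (ENSMUSG00000015966, chromosome 14, 29996135 to 30008896, minus strand) was at an FPKM of 0.762 in WT against 0.870 in Postn-DTR, just under the expression minimum. These values stood for about 33 and 39 reads, and the ratio of 1.14 had an interval of 0.700 to 1.88. The annotation has exons of Actr8 overlapping it on the other strand. Il25, which encodes its ligand, was at 0.0498 and 0.145, about 1 and 3 estimated reads, so neither library held more than the floor of 3 reads.

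Gata3 (ENSMUSG00000015619, chromosome 2, 9857078 to 9890034, minus strand), required by ILC2s and by type 2 helper T cells, had the most negative change of the members. Its FPKM was 2.08 in WT against 1.47 in Postn-DTR, from 146 and 107 estimated reads. The ratio was 0.709, with an interval of 0.547 to 0.916, and the change of -0.32 lay between -0.54 and -0.13 under the alternatives. Of the genes compared, 19.99% had a lower change. Exons of 9230102O04Rik overlap Gata3 on the same strand and exons of Gm13256 on the other, and reads there could have been counted for either gene.

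Rora (ENSMUSG00000032238, chromosome 9, 68653786 to 69388246, plus strand), the nuclear receptor needed for ILC2 development, did not follow Gata3. Its FPKM was 3.03 in WT against 3.43 in Postn-DTR, a ratio of 1.13 with an interval of 0.918 to 1.40 at the shortest coding transcript (169 and 198 estimated reads). At the longest, with 756 and 886 reads, the interval would be 1.03 to 1.25 and exclude 1 on counting error. The change of 0.14 turned to -0.10 when both libraries were set to the same total, so its direction depended on the scaling. Klrg1 (ENSMUSG00000030114, chromosome 6, 122270596 to 122282882, minus strand), an inhibitory lectin-like receptor of mature ILC2s and of differentiated T and NK cells, was at 2.51 in WT against 2.86 in Postn-DTR. Its ratio was 1.14, with an interval of 0.814 to 1.57, and its change of 0.14 also turned negative at the same total. Rora and Klrg1 were the members nearest to each other in change.

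The effector cytokine genes were at or close to the limit of detection in both libraries. Il5 (ENSMUSG00000036117, chromosome 11, 53720794 to 53725106, plus strand) was at an FPKM of 0.161 in WT against 0.187 in Postn-DTR, 5 and 6 estimated reads, and the ratio of 1.16 had an interval of 0.295 to 4.81. Il13 (ENSMUSG00000020383, chromosome 11, 53631324 to 53634702, minus strand) was at 0.0427 in WT, or 1 read, and was listed at 0 in Postn-DTR, where 3 reads would have given an FPKM of 0.125. Both Il13 values were under the floor, so no fold is given. Areg (ENSMUSG00000029378, chromosome 5, 91139599 to 91148432, plus strand) was at 0.129 in WT against 0.125 in Postn-DTR, 3 reads in each, again at the floor. A change in these 3 genes smaller than several fold was not detectable at this depth.

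Ordered by FPKM, Il33 stood alone at the top and Il5, Areg and Il13 at the bottom in both libraries. In WT, Il33 was followed by Tslp, Rora, Klrg1, Il1rl1 and Gata3, and from Tslp to Gata3 the counting intervals of neighbours overlapped. Il17rb came next, apart from its neighbours on both sides, and Il5, Areg and Il13 closed the order with overlapping intervals. In Postn-DTR, Il1rl1 stood in second place at 3.57 and Tslp behind Klrg1 at 2.44, again with overlapping neighbours, while Gata3 stood apart below them. Il33 was 14.2 times the next member in WT and 11.3 times in Postn-DTR.

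**Figure D2:**
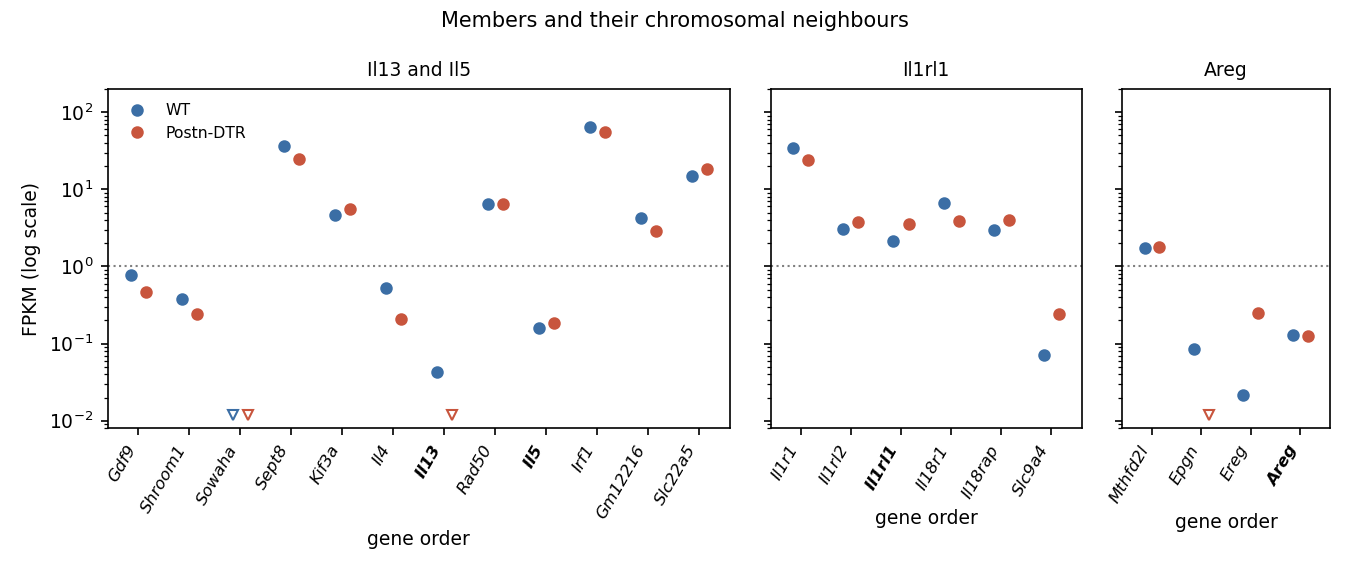
FPKM (log axis) of members (bold) and of genes within 200 kb, in chromosomal order, in WT (blue) and Postn-DTR (red). Open triangles are genes listed at 0, and the dotted line is an FPKM of 1. The low values of Il5 and Il13 stood beside Rad50 at 6.53 and 6.39 and Irf1 at 63.5 and 55.4.

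Members that sit in gene clusters were compared with genes within 200 kb, chosen after the values were seen. Il13 and Il5 lie 86.1 kb apart on either side of Rad50, a DNA repair gene, with Il4 next to Il13. Rad50 had an FPKM of 6.53 in WT against 6.39 in Postn-DTR, whereas Il4, the partner of IL-13 in type 2 immunity, was at 0.534 and 0.206, from about 4 and 1.6 estimated reads. The cytokine genes were thus low in both libraries between neighbours that were readily measured. Around Il1rl1, the IL-18 receptor gene Il18r1 was at 6.66 in WT against 3.89 in Postn-DTR, and its partner Il18rap was at 2.98 and 4.05. The IL-1 receptor gene Il1r1 was at 34.0 and 24.1, and Il1rl2, which encodes the IL-36 receptor, at 3.09 and 3.82. None of these 4 receptor genes reached 2-fold, and they did not share a direction. Beside Areg, the EGF family genes Ereg and Epgn were under the minimum in both libraries: Ereg was at 0.0218 and 0.253, about 2 and 24 estimated reads, and Epgn at 0.0857 and 0.

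Scaling set the direction of some members and not of others. Of the 6 members above the expression minimum, Il33, Tslp and Gata3 kept a negative sign and Il1rl1 a positive sign under all 7 alternatives tried for single genes. Rora and Klrg1 turned negative under the 2 scalings to the same total. No direction was read for the 4 members under the minimum. The count of members at 2-fold remained 0 in each direction under all 11 alternatives.

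**Figure D3:**
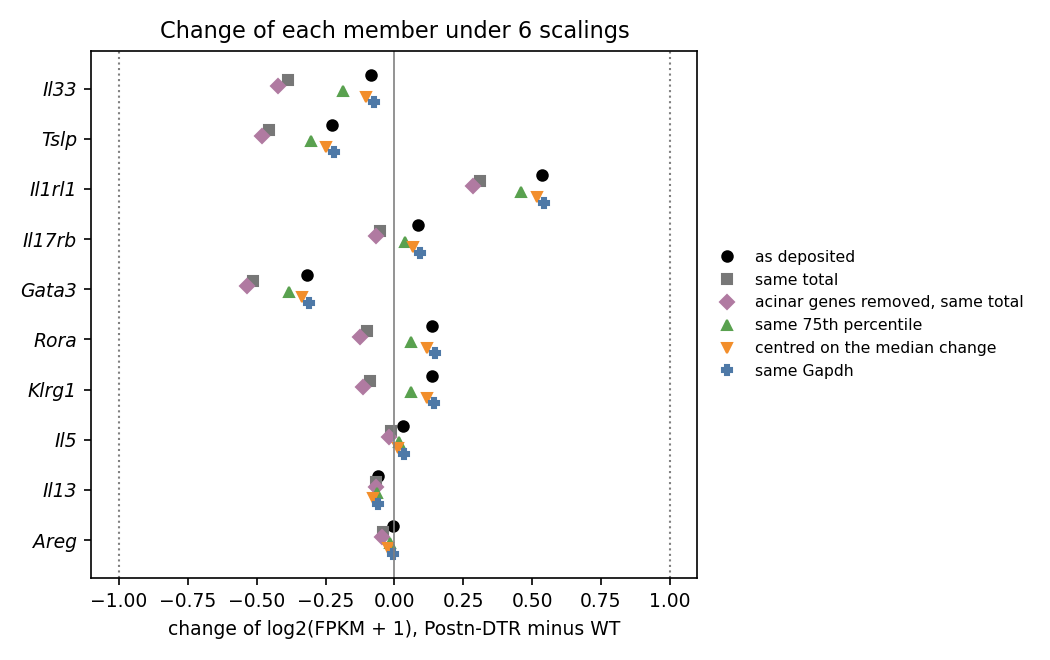
Change on the log2(FPKM + 1) scale (Postn-DTR minus WT) for each member as deposited (black) and under 5 other scalings of the libraries. Dotted lines mark 2-fold, which no member reached, Il17rb, Il5, Il13 and Areg were under the expression minimum, and Il1rl1 lay to the right of 0 and Gata3 to the left under every scaling shown.

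The wider set of alarmin ligands and receptor chains, 9 genes of which 4 are members, held no gene at 2-fold among the 7 compared, and its median of 0.05 turned to -0.17 at the same total. Crlf2, the TSLP-binding receptor chain, was at 28.0 in WT against 50.3 in Postn-DTR, a change of 0.82. Its partner Il7r, which also serves IL-7, was at 10.1 and 6.92, a change of -0.49. The chains of the TSLP receptor thus differed in opposite directions, and these were the largest changes of the list on each side. Il1rap, the partner of ST2, was at 2.48 and 2.61, and that small difference changed sign with the scaling.

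Among type 2 cytokine and receptor genes, 1 of the 9 compared was at least 2-fold lower and 0 were higher. It was Il9r, the IL-9 receptor of mast cells and lymphocytes, at 4.81 in WT against 1.90 in Postn-DTR, a change of -1.002 that lies at the threshold and was -0.99 with both libraries set to the same Gapdh, short of it. Il4ra, the shared receptor chain for IL-4 and IL-13, was at 26.6 and 53.4, a change of 0.98 just short of it. Il5ra, the receptor for IL-5, was at 3.69 and 6.29. Il9 was listed at 0 in both libraries. Il13ra2, a second IL-13-binding receptor, was at 0.0875 and 0.0200, under the floor in both libraries. The ligand genes Il4, Il5, Il9 and Il13 were likewise at or near 0. The median of the list was 0.10, which turned to -0.20 at the same total.

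Genes of the wider ILC2 lists differed in both directions. The transcription factor list includes the members Gata3 and Rora. The surface and effector list includes Klrg1, Il1rl1 and Il17rb. Of the 10 compared among 11 ILC2 transcription factor genes, 0 were 2-fold lower and 1 was higher, and the median was -0.19. At the same total, 3 of the 10 (Ets1, Tcf7 and Maf) were lower and the median was -0.39. Over all genes compared at that scaling, 5.68% were at least 2-fold lower and 2.41% higher, with a median of -0.25. Nfil3, which encodes a factor required for innate lymphoid cells and also induced in macrophages, rose from 12.9 to 41.6, a change of 1.61. Ets1 was at 35.4 and 17.6, a change of -0.97, and Tcf7 at 16.2 and 7.99, a change of -0.94. Of the 14 compared among 19 ILC2 surface and effector genes, 1 was lower and 1 higher, and the median of -0.34 became -0.61 at the same total. Penk, which encodes enkephalin and is also used by fibroblasts, fell from 105 to 43.9, and Tph1, the serotonin synthesis gene that mast cells also use, was at 0.191 (about 1.64 estimated reads) and 2.93 (about 26.0), a change of 1.72. The most selective ILC2 markers of the list were close to 0: Nmur1, the neuromedin U receptor, was at 0.0422 and 0.204, and Ptgdr2, which encodes CRTH2, at 0.0527 and 0.0340, none with more than 5 estimated reads. The values of Gata3, Rora and Klrg1, which other lymphocytes also express, cannot be assigned to ILC2s from these libraries.

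**Figure D4:**
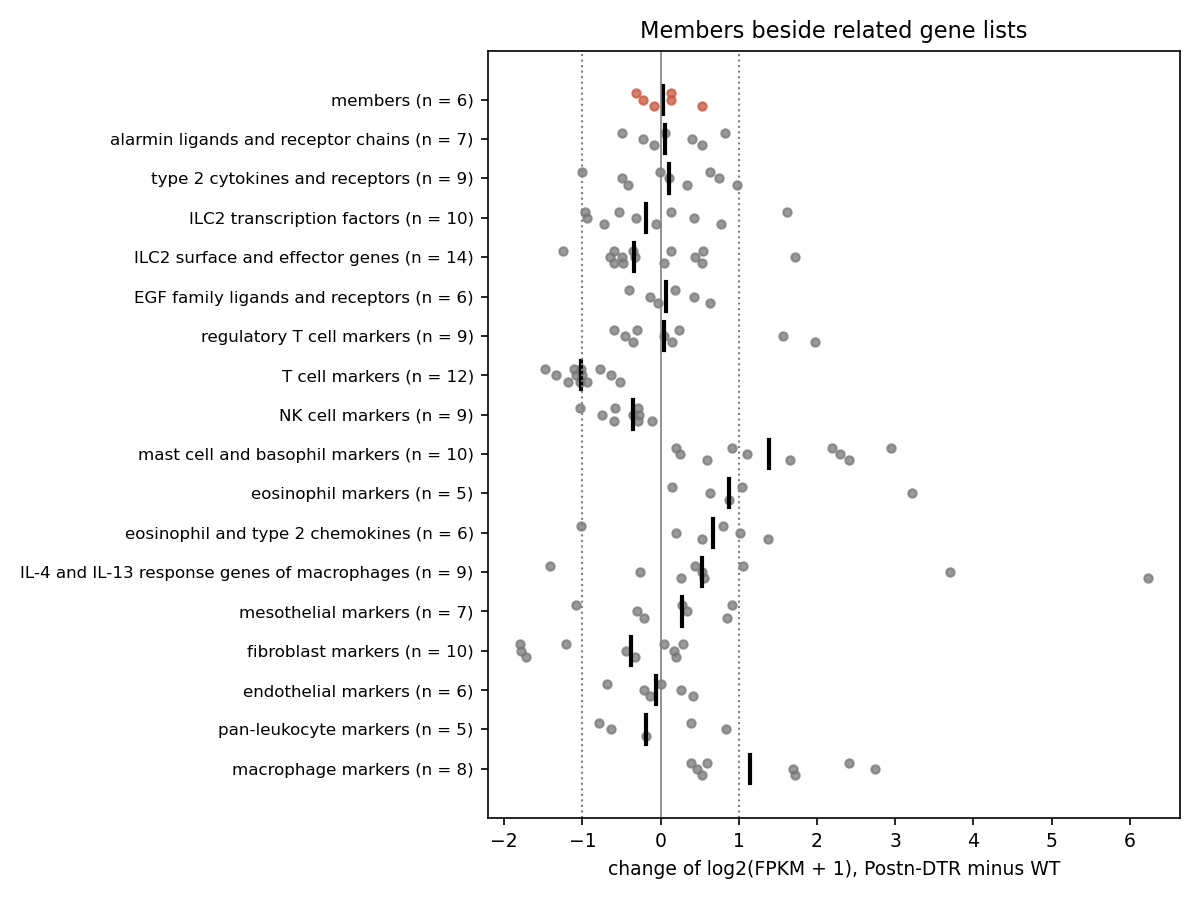
Change on the log2(FPKM + 1) scale (Postn-DTR minus WT) for each gene compared (points) in the members (red) and in related gene lists (grey), with the list's median (black bar) and the number of genes compared. Dotted lines mark 2-fold. The 6 members lay between -0.32 and 0.54, T cell markers were centred on -1.02 and mast cell and basophil markers on 1.38.

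Markers of other cells that express the members differed between the libraries. T cells can also express Gata3, Rora and Klrg1, and T cell markers had 8 of 12 genes at least 2-fold lower and 0 higher, a median of -1.02 and a summed FPKM of 115 in WT against 50.1 in Postn-DTR. Cd4 fell from 11.3 to 3.41 and Cd5 from 7.65 to 2.42, while none of the list was at 0. NK cell markers had 1 of 9 lower and 0 higher, with -0.36 as the median (-0.65 at the same total), and sums of 57.6 and 39.2. It was Klrd1, at 8.92 and 3.87. Klrg1, which T and NK cells share, was at 2.51 and 2.86 beside these lower sums. Regulatory T cell markers, for cells that can use ST2 in fat, had 0 of 9 lower and 2 higher with a median of 0.04 that turned to -0.21 at the same total. The higher genes were Il10 (1.20 and 7.63) and Ctla4 (2.63 and 9.78), whereas Foxp3, which defines these cells, was at 1.70 and 0.967. Il2ra was at 3.43 and 1.93 and Ikzf4 at 1.38 and 0.933. By sign, 4 of the 9 were lower and 5 higher. Single-cell RNA-seq in the paper, at 5 days after DT, put every T cell subset, regulatory T cells included, at a markedly reduced proportion in Postn-DTR. The paper also counted fewer omental CD4 and CD8 T cells.

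Mast cells and basophils express Il1rl1 strongly, and their markers were higher in Postn-DTR, with 6 of the 10 compared at least 2-fold higher, 0 lower and a median of 1.38. The summed FPKM of the 12 genes was 101 in WT against 358 in Postn-DTR. Fcer1a, the IgE-binding receptor chain, rose from 1.15 to 15.6, and the mast cell protease genes Tpsb2 and Cma1 rose from 18.02 to 99.97 and from 16.5 to 84.8. Kit, the stem cell factor receptor, was at 3.91 and 4.61, and the basophil protease genes differed, with Prss34 at 0.550 and 1.92 and Mcpt8 at 0.337 (about 5 estimated reads) and 0. The part of these cells in the Il1rl1 difference, and of the T cells in the Gata3 difference, was not tested.

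Mesothelial cells, fibroblasts and endothelium are known sources of IL-33. As deposited, the medians of their markers did not share a direction, whereas at the same total all were negative. Fibroblast markers had 4 of 10 genes at least 2-fold lower and 0 higher, a median of -0.38 (-0.67 at the same total) and sums of 1067 in WT against 593 in Postn-DTR. Dpt fell from 237 to 67.3 and Clec3b from 354 to 102, while Pdgfra, a general fibroblast receptor, was at 26.0 and 29.2. Mesothelial markers had 1 of 7 lower (Lrrn4, 62.7 and 29.2) and 0 higher, with a median of 0.27 that turned to -0.03 at the same total, and sums of 530 and 567. Endothelial markers had 0 of 6 past 2-fold, a median of -0.06 (-0.37 at the same total) and sums of 245 and 246. Beside these sums, Il33 was at 43.0 and 40.5, and its change was -0.39 at the same total. The part of each cell type in the Il33 value was not tested.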

How the data were processed

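The authors deposited FPKM, 1 value per gene symbol, for 1 WT and 1 DTR library of whole omentum. Per the labels, total RNA (miRNeasy) was made into stranded TruSeq mRNA libraries. The submitters' processing notes name TopHat2 2.1.1, Bowtie2 2.2.8, SAMtools 0.1.18, Cuffdiff 2.2.1 and mm10; the gene annotation, counting by strand and read totals are not given in the sources used here. Positions and lengths came from GENCODE M21 (GRCm38), which may differ from the authors' annotation.

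Change was log2(FPKM + 1), DTR minus WT, for genes whose FPKM averaged 1 or more. Of 723 genes under 0.1 FPKM in both libraries, 174 had a ratio of 0.967, which set the relative depth. Single-transcript genes then gave the denominators, with lengths shortened by 210 bp: 76.3% of 712 values came out whole within 0.1 reads. Read estimates used the shortest coding transcript. Ratio intervals were exact conditional binomial and level intervals exact Poisson, and cover counting error only.

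The members and the gene lists were chosen with earlier results of these data known. All members were named. The rule for each list was to name genes at 2-fold, or otherwise the largest decrease and increase, with at most 4 per list. Ligand or receptor partners and defining markers were added. Some genes that met this rule were not printed, among them Lck, Cd6, Pdgfrb, Ccl19, Cpa3, Adgre1, Itgam, Cd68 and Cd14. Genes quoted beyond this rule, such as Il4ra, Il5ra, Ets1, Pdgfra and Kit, were chosen after their values were seen. The scripts, tested on simulated data, used Python 3.11.15, pandas 2.3.3, numpy 2.4.6, scipy 1.17.1 and matplotlib 3.10.9. Alternatives covered the pseudocount, filter, threshold and scaling.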

Additional observations from a re-analysis of the deposited data

How the results depend on the processing

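The median change of the members, 0.03 as reported, was -0.24 with both libraries set to the same total and -0.27 with the acinar genes removed and the same total. Over all 9 alternatives tried for it, it ran from -0.27 to 0.04. All genes moved with these 2 scalings: the share of higher genes among those at 2-fold went from 55.4% to 29.8% and 28.1%. The counts of members past the threshold remained 0 under all 11 alternatives. The 1.5-fold threshold was also taken on the log2(FPKM + 1) scale. Il1rl1 fell short of it with a change of 0.54, although its FPKM ratio without the added 1 was 1.66. Over all genes compared, 8.84% were lower and 9.86% higher at 1.5-fold. Of 18 list medians, 6 took another sign under some alternative, and those of the T cell, NK cell, fibroblast, mast cell and macrophage lists did not. Recounting the lists under the other scalings, and the Rora interval at the longest transcript, were chosen after seeing the data. The T cell list then had 7 to 10 of 12 genes lower, the mast cell and basophil list 5 or 6 of 10 higher, and the endothelial list 1 of 6 lower (Kdr) with the acinar genes removed and the same total. No replicate could be left out with 1 library per genotype. No paired analysis was possible because each genotype had 1 library. Depth limits Il5, Il13 and Areg, which rested on 6 or fewer estimated reads in each library.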

Other observations

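Of 9 genes that answer to IL-4 and IL-13 in macrophages, 3 were at least 2-fold higher in Postn-DTR and 1 was lower, with a median of 0.53. At the same total, 2 were higher, without Clec10a, and the median was 0.23. Arg1, which encodes arginase 1, rose from an FPKM of 4.68 to 427.3, and Chil3, which encodes the chitinase-like protein Ym1, rose from 12.1 to 170.0. Clec10a rose from 71.1 to 148.2, whereas Mgl2, its close relative among the macrophage lectins, fell from 60.9 to 22.3. Retnla, the most abundant gene of this list, was at 435.1 and 522.0. Its change of 0.26 turned to -0.08 with the acinar genes removed and the same total. By sign, 7 of the 9 were higher and 2 lower as deposited. Whether IL-4 or IL-13 set any of these values was not tested. Macrophage markers had 4 of 8 genes higher and 0 lower, a median of 1.14 and sums of 2890 in WT against 4824 in Postn-DTR. The part of macrophage number in these differences was not tested here. The paper counted omental macrophages at 5 days after DT and reported no altered number in Postn-DTR mice.

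Eosinophils are the cells maintained by IL-5. As deposited, all 5 of their markers compared were higher by sign, and lower values appeared only among markers under the minimum. Of 5 compared, 2 were at least 2-fold higher and 0 lower, with a median of 0.88 and sums of 62.2 and 368 over the 9 genes. At the same total, 1 was higher, without Ear2. Alox15, a lipoxygenase also made by resident peritoneal macrophages, rose from 33.1 to 317.0 and made up most of the sum. The ribonuclease gene Ear2, which macrophages can also express, rose from 13.7 to 29.1. Prg2, which encodes major basic protein, was at 8.30 and 9.26, a difference that changed sign with the scaling, and Il5ra was at 3.69 and 6.29. Other eosinophil genes were under the minimum. Siglecf was at 0.0584 in WT against 0.207 in Postn-DTR, about 1.9 and 6.8 estimated reads. Epx, which encodes eosinophil peroxidase, was at 0.0862 and 0.0333, about 5 and 2 reads. Ccr3, the eotaxin receptor, was at 0.363 and 0.122, about 26 and 9 reads. Among 6 chemokines of eosinophils and of type 2 immunity compared, 2 were higher and 1 lower, and the median was 0.66. At the same total 1 was higher, without Ccl5, and the median was 0.36. Ccl11, which encodes eotaxin 1, fell from 23.8 to 11.3, while Ccl17 rose from 1.65 to 5.85 and Ccl5 from 102 to 207.

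Among 11 EGF family ligand and receptor genes, 6 were compared and 0 reached 2-fold, with a median of 0.08 that turned to -0.19 at the same total. Erbb3, a receptor for neuregulins, was at 1.01 and 2.13, and Adam17, the protease that sheds amphiregulin, was at 23.6 and 17.6. Egfr, the receptor for amphiregulin, was at 9.85 and 11.3. Among 5 pan-leukocyte markers 0 reached 2-fold, the median was -0.19, and at the same total 1 (Coro1a) was lower and the median was -0.49. Ptprc, which encodes CD45, was at 55.6 and 35.4. Among 8 housekeeping genes 0 reached 2-fold, with a median of 0.12 that turned to -0.18 at the same total.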
